A study of Gallus gallus with 2 samples.

Results

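Of the 3317 FOXO1 peaks in the authors' list, 326 lay on chicken chromosome 2, and these are described here. They were taken by chromosome name, from a list made with 1 FOXO1 ChIP library against 1 input library. The chromosome itself was picked with its low number of peaks per Mb already known. The list takes in 29 chromosomes. Both libraries came from primary chicken myoblasts, taken from thigh muscle of 11-day embryos, grown with 20% fetal bovine serum and then switched to 2% horse serum, and labelled as differentiated cells. The FOXO1_ChIP library was made with antibody sc-374427X from Santa Cruz and the input_DNA library with no antibody. No strain, sex or genetic change is given, and neither is the number of embryos behind each library. There was no replicate on either side, so every value below belongs to this pair of libraries and this peak list, and none has a replicate check. A peak list holds no expression values, so the myoblast identity of the cells could not be set against marker genes.

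FOXO1 is a forkhead transcription factor. Insulin and growth factor signalling through AKT phosphorylates it and moves it out of the nucleus, and when that signal falls it returns and binds DNA through its forkhead domain. In muscle it is known as an activator of protein breakdown genes in atrophy and as a regulator of myoblast fusion and differentiation, mostly from work in mice. Chicken chromosome 2 is a macrochromosome, a class of long chromosomes that are known to be less gene-dense and less GC-rich than the small bird microchromosomes. Chromosomes 1, 3, 4 and 5 are macrochromosomes too and serve below as the comparison. The coordinates are those of the deposited list, counted from 1, whose genome build is not named in the sources used here. No gene was therefore assigned to a peak, and no sequence was read.

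The ChIP library was shallow, with 2207278 tags, and a tag is a mapped read position counted by the caller. Most peaks of the list were low, with a median of 7 total tags, though the highest held 1507. On chromosome 2 the total tags per peak ran from 5 through a median of 8 to 17, and the median was 7 on each of chromosomes 1, 3, 4 and 5. A median of 8 or more was found on 11 of the 29 chromosomes. Totals of 8 or more made up 51.8% of the peaks on chromosome 2 and 43.5% to 47.6% on those 4. By single counts, 40 peaks held 6 tags, 116 held 7, 80 held 8 and 46 held 9, which together made 86.5% of the chromosome (exact 95% interval 82.3 to 90.02), beside 84.99% of the whole list. For a peak of 8 tags, Poisson counting gives 3.45 to 15.8 as its 95% interval, which spans nearly the whole range of the chromosome. Differences between most single peaks of chromosome 2 were therefore not detectable at this depth. The intervals cover counting error only, since PCR copies, where present, are not independent molecules. The caller's header gives 1 as the most tags considered per bp, but does not say whether this held for the total tags.

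Peaks were sparse on chromosome 2 as a whole. The 326 peaks lay within 148.8 Mb, which is the position of the last peak end, at 2.19 peaks per Mb (Poisson 95% interval 1.959 to 2.44) or 1 peak per 456 kb. This is 9.83% of the peaks on 14.9% of the covered length of all chromosomes. Chromosome 3 had 2.33 per Mb (2.05 to 2.63), chromosome 1 had 2.52 (2.31 to 2.76), chromosome 4 had 2.55 (2.23 to 2.90) and chromosome 5 had 3.50 (3.04 to 4.01). Chromosome 2 was singled out with this low density already known, so the order is a description and was given no test. Its interval overlaps those of chromosomes 1, 3 and 4 and lies below that of chromosome 5.

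As ratios, chromosome 2 had 0.840 times the density of the other 4 macrochromosomes together (exact 95% interval 0.741 to 0.950). Singly the ratio was 0.626 to chromosome 5 (0.524 to 0.748) and 0.868 to chromosome 1 (0.753 to 1.001). It was 0.859 to chromosome 4 (0.724 to 1.02) and 0.942 to chromosome 3 (0.797 to 1.11). The intervals give the counting error of these ratios and are no test, since the low density was known when chromosome 2 was chosen. With the first Mb of every chromosome left out, the ratio to chromosome 1 was 0.854 (0.738 to 0.987) and that to chromosome 3 was 0.905 (0.765 to 1.07). Peaks were counted as independent here. In windows of 1 Mb their number varied more than a Poisson count does, with a variance 1.61 times the mean on chromosome 2, so these intervals are too narrow.

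Density fell along chromosome 2 from its first to its last listed positions. Cut into 10 stretches of equal length, it held 49 peaks in the first, or 3.29 per Mb (2.44 to 4.35), and 19 in the last, or 1.28 per Mb (0.769 to 1.99). The stretches between them held 25 to 39 peaks. Split in the middle, at 74.4 Mb, the chromosome held 191 peaks before that point and 135 after it, a density ratio of 1.42 (exact 95% interval 1.13 to 1.78). Without the first Mb the ratio was 1.34 (1.06 to 1.68). This split was chosen after the positions were seen and was not tested.

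**Figure D1:**
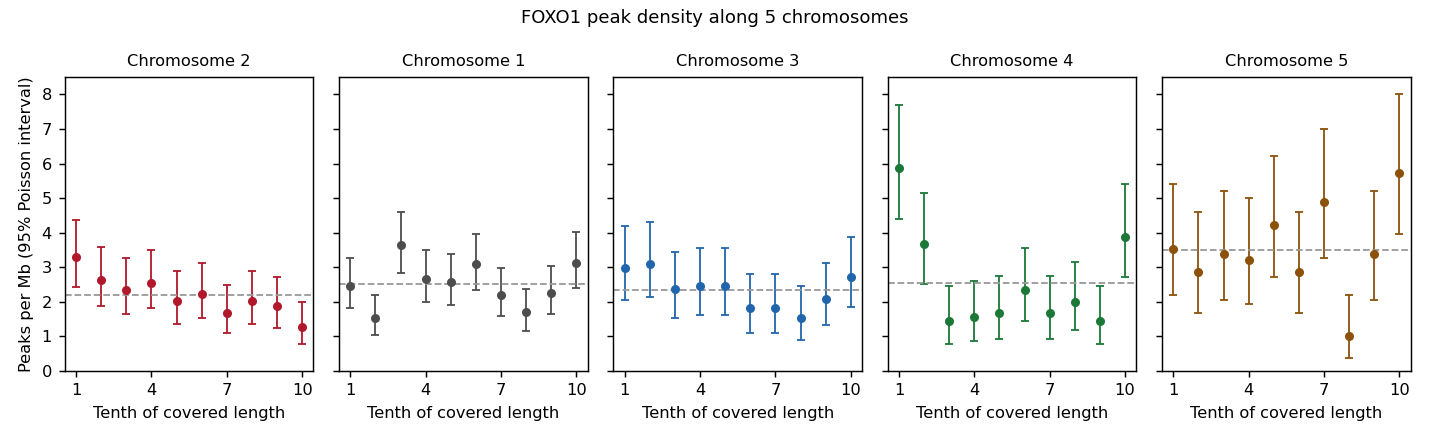
Peaks per Mb in 10 stretches of equal length along chromosomes 2, 1, 3, 4 and 5, with Poisson 95% intervals as bars and each chromosome's own density as a dashed line. On chromosome 2 the points go from 3.29 in the first stretch to 1.28 in the last, while the last point of each of the other 4 chromosomes lies above its dashed line.

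The other macrochromosomes differed from chromosome 2 at the end, while chromosome 3 had a similar fall across its middle. The last of the 10 stretches, where chromosome 2 was lowest, held 3.13 peaks per Mb on chromosome 1, 2.72 on chromosome 3, 3.88 on chromosome 4 and 5.72 on chromosome 5, each above that chromosome's own density. The density ratio before to after the middle was 1.34 on chromosome 3 (1.04 to 1.73) and 1.26 on chromosome 4 (0.960 to 1.64). It was 1.04 on chromosome 1 (0.869 to 1.25) and 0.962 on chromosome 5 (0.726 to 1.28). Without the first Mb it was 1.35 on chromosome 3 (1.05 to 1.75) and 1.12 on chromosome 4 (0.851 to 1.48). On chromosomes 1 and 5 it was then 1.01 (0.838 to 1.21) and 0.928 (0.696 to 1.24). The interval of chromosome 2 overlaps all of these. The difference in profile between chromosomes was not tested.

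In steps of 10 Mb the fall was uneven. The first 10 Mb of chromosome 2 held 34 peaks and the next 10 Mb held 31. The 5 steps from 20 to 70 Mb held 21 to 27 each, and the 5 steps from 70 to 120 Mb held 15 to 21. There were 20 peaks from 120 to 130 Mb, 12 from 130 to 140 Mb and 13 in the remaining 8.8 Mb. Over the same steps the median stayed at 7 to 8 total tags, and the median input ran from 9 to 14.5 tags. Peaks with 10 or more tags made up 30 of the 191 before the middle (15.7%) and 13 of the 135 after it (9.63%), a difference that was not tested.

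The first Mb was the fullest window of the chromosome. It held 13 peaks, where the rest of chromosome 2 had 2.12 per Mb, a ratio of 6.14 (exact 95% interval 3.23 to 10.7). The first of them started at 253233, and the 13 peaks then followed each other at gaps of 24.1 to 102.7 kb. After the last of them, at 931725 to 931927, no further peak came for 1.13 Mb, so that the second Mb held 0. The first Mb held 16 peaks on chromosome 4 (ratio 6.67, 3.74 to 11.1), 11 on chromosome 1 (4.44, 2.2 to 8.01), 7 on chromosome 5 (2.03, 0.807 to 4.27) and 1 on chromosome 3 (0.428, 0.0108 to 2.40). Over the whole list the ratio of first Mb to rest was 2.405 (2.09 to 2.756). These intervals count peaks as independent and are too narrow where window counts vary more than a Poisson count does. The count of 13 was known when this stretch was chosen, so no test is given.

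The tallest peak of chromosome 2 stood in that first Mb. At chr2:394665-394867 there were 17 ChIP tags against 3 input tags, a 107-fold ratio (exact 95% interval 30.9 to 570). Folds and p-values of single peaks are the authors' own, and the intervals come from the recovered whole input tags, without allowance for the caller's selection. Its neighbour at chr2:352896-353098 had 8 ChIP tags and 2 input tags, a ratio of 75.5 (15.1 to 730), and the peak at chr2:627014-627216 had 7 and 2, a ratio of 66.1 (12.6 to 652). These 3 peaks had the least input of the 13, and their intervals are wide because 2 or 3 input tags carry the ratio.

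The other 10 peaks of the first Mb had 7 to 10 ChIP tags and 8 to 26 input tags. The peak at chr2:868936-869138 had 10 ChIP tags and 12 input tags (15.7-fold, 6.09 to 39.7), and that at chr2:931725-931927 had 10 and 15 (12.6-fold, 5.06 to 29.9). Peaks at 596605 and 253233 had 9 ChIP tags each, with 12 and 16 input tags. That at 565405 also had 9, with 17. At 907405 there were 8 ChIP and 13 input tags, and at 709444 there were 8 and 18. The lowest fold of the group was at chr2:472569-472771, with 8 ChIP tags and 26 input tags (5.81-fold, 2.27 to 13.2). At 504220 and 766010 there were 7 ChIP tags, against 8 and 12 input tags.

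The tags of the first Mb lay mostly within the range of the rest. Median total tags were 8 in the 13 peaks (range 7 to 17) and 8 in the other 313 (5 to 16). Median scaled control tags, the input tags brought to the depth of the ChIP library, were 0.6 in both, with ranges of 0.1 to 1.4 and 0 to 2.3. The summed ChIP tags were 14.2 times the summed scaled input in the first Mb (11.04 to 18.1) and 12.7 times in the rest (12.1 to 13.4). Scaled control tags lay above 0.6, the median of the whole list, in 6 of the 13 peaks (46.2%) and in 135 of the 313 (43.1%). Fisher's exact test, two-sided, gave p = 1 for that difference of 3.02 percentage points (normal-approximation 95% interval -24.6 to 30.7). With 13 peaks, that interval leaves large differences in either direction possible.

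**Figure D2:**
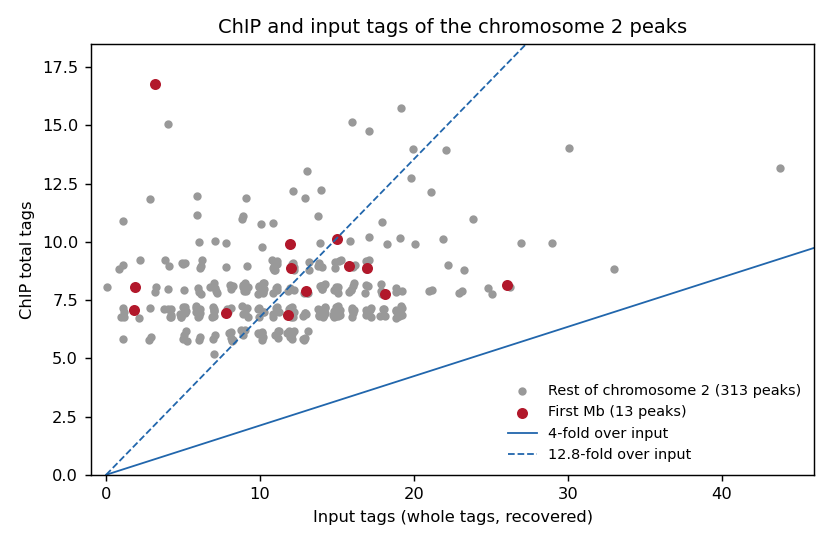
ChIP total tags against whole input tags for each of the 326 peaks of chromosome 2, with points spread slightly at random so that ties can be seen and blue lines at 4-fold and 12.8-fold over input. The 13 red points of the first Mb lie among the grey points of the rest, apart from the highest point of all, with 17 ChIP tags and 3 input tags.

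Away from the first Mb, no window of chromosome 2 held more than 7 peaks. From 52000001 to 53000000 there were 7 peaks with 51 tags, of which the highest peak held 10. From 127000001 to 128000000 there were 7 peaks with 54 tags, none above 9, and the lowest median control of the full windows, 0.4. The windows starting at 19000001, 32000001 and 56000001 held 6 peaks each, as did those starting at 64000001 and 102000001.

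The full windows were not alike in input. The window from 19000001 had the highest median scaled control, 0.95 (range 0.7 to 1.6). Its tallest peak, at chr2:19788214-19788416, had 14 ChIP tags and 30 input tags, an 8.81-fold ratio (4.32 to 17.1). The window from 32000001 had a median control of 0.5 and 59 tags, the most of these windows. There the peak at chr2:32225712-32225914 had 12 ChIP tags and 9 input tags (25.17-fold), and its neighbour 2.63 kb before it had 12 and 21 (10.79-fold).

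Of the 149 windows of 1 Mb, 24 held no peak (16.1%, exact 95% interval 10.6 to 23.01). Another 38 held 1 peak, 34 held 2 and 24 held 3. Windows with 5 or more peaks numbered 15 (10.1%). Empty windows made up 17.4% on chromosome 1 (12.4 to 23.5), 14.4% on chromosome 3 (8.47 to 22.4), 11.0% on chromosome 4 (5.40 to 19.3) and 10.0% on chromosome 5 (3.76 to 20.5). Every one of these intervals overlaps that of chromosome 2. Windows with 5 or more peaks were 9.91% on chromosome 3, 16.4% on chromosome 1, 15.4% on chromosome 4 and 28.3% on chromosome 5. Over the whole list 14.2% of windows were empty (12.1 to 16.5) and 23.9% held 5 or more peaks. These shares, like the gap lengths given below, depend on the peaks per Mb, known when chromosome 2 was picked. They are no separate evidence that the chromosome differs.

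How unevenly peaks filled the windows can be put as the variance of their counts over the mean. On chromosome 2 this quotient was 1.61. It was 1.40 on chromosome 3, 1.91 on chromosome 5, 2.30 on chromosome 1 and 2.59 on chromosome 4. The differences between these quotients were not tested.

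**Figure D3:**
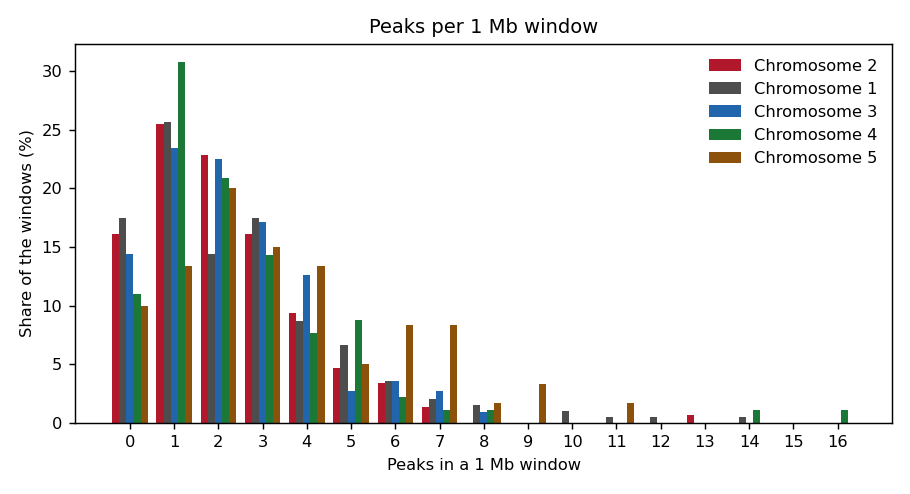
Share of the 1 Mb windows of chromosomes 2, 1, 3, 4 and 5 by the number of peaks they hold, as bars that start at 0. Chromosome 2 has 16.1% of its windows at 0, and its first Mb, with 13 peaks, is its one window beyond 7.

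More of the empty windows lay after the middle. There were 9 among the first 74 windows and 15 among the last 75. They came as 12 single windows and 6 runs of 2, and none ran longer. The runs of 2 began at 69000001, 81000001, 94000001, 99000001, 120000001 and 146000001. The longest stretch in which every 1 Mb window held a peak went from 2000001 to 25000000, with 71 peaks in 23 windows. Others went from 39000001 to 59000000 with 55 peaks and from 101000001 to 120000000 with 41.

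Measured from peak to peak, the longest gap was 3.36 Mb. It stood at the end, between a peak of 6 ChIP and 8 input tags at chr2:145438293-145438495 and the last peak of the chromosome, with 7 and 6 tags, at chr2:148799419-148799621. The next was 3.13 Mb, after the peak at 98587438 (7 ChIP and 14 input tags) and before that at 101716092 (9 and 12). A gap of 3.02 Mb followed the peak at chr2:119601463-119601665, which had the most input of the chromosome, and ended at 122622605 with a peak of 6 ChIP and 6 input tags.

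The remaining long gaps were 2.71 Mb after the peak at 68321796 and 2.54 Mb after that at 93981329. The peaks beside them had 9 and 11 ChIP tags before the gaps and 7 after each, at 71032114 and 96523679. In all, 7 gaps of chromosome 2 were over 2 Mb, against 6 on the longer chromosome 1, 8 on chromosome 3, 3 on chromosome 4 and 1 on chromosome 5. The longest gap was 4.44 Mb on chromosome 1, 2.70 on chromosome 3, 2.98 on chromosome 4 and 4.24 on chromosome 5. The median gap between neighbours was 237 kb on chromosome 2, with 218 kb on chromosomes 1 and 4, 263 kb on chromosome 3 and 138 kb on chromosome 5.

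Close neighbours were few and came only as pairs. Of 325 gaps between adjacent peaks of chromosome 2, 12 were 10 kb or less (3.69%, exact 95% interval 1.92 to 6.36), and no pair had a further peak within 10 kb. The share was 1.95% on chromosome 3 (0.637 to 4.50), 5.80% on chromosome 5 (3.03 to 9.91), 6.93% on chromosome 1 (4.84 to 9.54) and 6.99% on chromosome 4 (4.05 to 11.1). Over the whole list it was 7.725% (254 of 3288 gaps, 6.835 to 8.691). Close gaps are rarer where peaks are sparser, and chromosome 2 was picked with its low density known. Its share of close gaps is therefore no separate trait, and it was not set against the share due at that density. Groups of more than 2 peaks were listed on chromosomes 1 and 4, up to 14 and 4 members.

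The closest pair lay at chr2:80307708-80307910 and chr2:80308309-80308511, 398 bp apart, with 8 ChIP tags each against 25 and 16 input tags. The pair at 44025760 and 44026375 was 412 bp apart, with 9 and 8 ChIP tags against 2 and 6 input tags. The next closest, at 102055599 and 102056694, was 892 bp apart, with 7 and 6 ChIP tags against 15 and 8 input tags. Chromatin had been sheared to 300 to 500 bp, while the caller's header gives a fragment length of 168 bp, shorter than these gaps. At the sheared sizes the peaks of the first 2 of these pairs can share fragments. They may then not be independent measurements. Over the 24 peaks in pairs the median was 8 tags and 10.5 input tags, and over the other 302 it was 8 and 12. Among the paired peaks 7 held 10 or more tags (29.2%), and among the rest 36 did (11.9%), a difference that was noticed in the data and not tested.

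Few peaks of chromosome 2 were tall. After the peak of 17 tags came 1 of 16 tags at chr2:45240925-45241127, with 19 input tags (15.9-fold, 7.64 to 32.6) and the highest fold of the chromosome over its own surrounding 10 kb, 64.35. Peaks of 15 tags stood at chr2:79746801-79747003, with 4 input tags (70.8-fold, 22.5 to 293), at chr2:90656120-90656322, with 16 (17.7-fold, 8.15 to 38.2), and at chr2:50484344-50484546, with 17 (16.7-fold, 7.74 to 35.5). Peaks of 14 tags lay at 34528177 and 18977074, with 20 and 22 input tags, beside that at 19788214. Peaks of 13 tags lay at 55706452, 83532554 and 119601463, with 13, 20 and 44 input tags. These 11 peaks of 13 or more tags lay between 394665 and 119601665, with none beyond.

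By the authors' p-value over input, the first places went to peaks with hardly any input. Behind the 107-fold peak of the first Mb and the 70.8-fold peak at 79746801 came the peak at chr2:131753946-131754148. It had 11 ChIP tags against 1 input tag (ratio 208, 30.2 to 8937). Next was chr2:101827032-101827234, with 12 against 3 (ratio 75.5, 20.4 to 417). The peak at chr2:21670683-21670885 had 8 ChIP tags and no input tag. With 3 input tags put in as the floor, the ratio was at least 50.3-fold before any error in the 8 ChIP tags. The exact lower 95% limit, which takes in that error, was 32.2, and the printed fold of 301.99 rests on the value that the caller puts in place of 0.

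Peaks at 8080608 and 24579790, each with 9 ChIP tags and 1 input tag, followed with equal p-values. Then came 92625867 with 12 against 6, 44025760 with 9 against 2 and 45240925 with 16 against 19. The p-values are unadjusted Poisson values of the caller and treat the scaled input as known without error. With 0 to 3 input tags that error is large, as the intervals above show.

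No peak of chromosome 2 was among those of the list with the most ChIP tags or the most input. None of its 326 peaks held 20 or more tags, beside 0.995% of the whole list. A count of 0 allows a share of up to 0.920% by the floor of 3 counts and of up to 1.125% by the exact 95% interval. These bounds fall on either side of the share of the list, so this number of peaks does not settle whether there was a shortfall. Such peaks were also missing on chromosomes 3 and 4, numbered 2 on chromosome 5 and 17 on chromosome 1, and 19 of the 29 chromosomes had none. The highest input was 44 tags (scaled, 2.3), at chr2:119601463-119601665, whose 13 ChIP tags made a 5.58-fold ratio (2.76 to 10.5). No peak of the chromosome had 100 or more input tags, beside 0.663% of the whole list. That share lies below both bounds given above for a count of 0, so no shortfall can be read from it. Chromosomes 3, 4 and 5 had no such peak either, and chromosome 1 had 14. The tags at peaks of chromosome 2 summed to 2613, or 7.95% of those of the list.

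Peaks of 10 or more tags numbered 43 on chromosome 2 (13.2%, exact 95% interval 9.71 to 17.4), beside 14.8% of the whole list, whose share lies inside that interval. The share was 16.1% on chromosome 1, 17.1% on chromosome 3, 11.7% on chromosome 4 and 18.3% on chromosome 5. Fisher's exact test, two-sided with Benjamini-Hochberg adjustment over these 4 comparisons, found no difference past 0.05: adjusted p = 0.362 against chromosomes 1, 3 and 5 and 0.697 against chromosome 4. The differences were -2.87 percentage points to chromosome 1 (normal-approximation 95% interval -7.77 to 2.03) and -3.93 to chromosome 3 (-9.82 to 1.96). To chromosome 4 the difference was 1.45 (-4.10 to 7.001) and to chromosome 5 it was -5.08 (-11.5 to 1.33). These tests compare peaks of a single library and say nothing of other cultures.

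**Figure D4:**
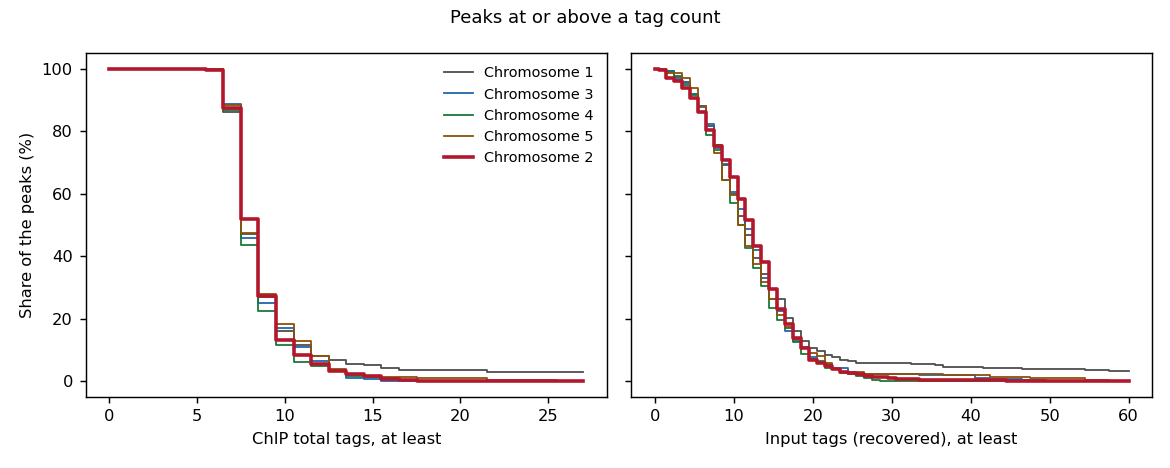
Share of the peaks at or above a given number of ChIP total tags (left) and of recovered input tags (right) on chromosomes 1, 3, 4, 5 and, as the thick line, 2. The 5 lines run close together below 10 ChIP tags, chromosome 2 ends at 17 ChIP tags and 44 input tags, and the line of chromosome 1 continues beyond both panels.

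After scaling to the ChIP depth, input under the peaks was small beside the ChIP tags, as the caller's 4-fold requirement demands. No input level away from the peaks is given, so it cannot be called low or high for the genome. Scaled control tags on chromosome 2 had a median of 0.6 (interquartile range 0.4 to 0.8, range 0 to 2.3). In whole input tags the median was 12 (8 to 15), with 11 on chromosomes 1 and 3 and 10.5 on chromosomes 4 and 5. Control tags above 0.6 were found at 141 peaks of chromosome 2 (43.3%), beside 39.5% of the whole list. The share was 39.4% on chromosome 1, 42.02% on chromosome 3, 36.1% on chromosome 4 and 37.5% on chromosome 5. By the same exact test the adjusted p was 0.370 against chromosomes 1, 4 and 5 and 0.801 against chromosome 3. The widest of these differences, 7.17 percentage points to chromosome 4, had an interval of -1.05 to 15.4.

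The caller's own limits bounded the input that a listed peak could have. A peak with 7 ChIP tags stayed within the required p of 0.0001 only up to 19 input tags, and 19 was the highest input among the 116 such peaks of chromosome 2. The bounds of 13, 26 and 33 input tags for 6, 8 and 9 ChIP tags were likewise each reached by a listed peak. At 10 ChIP tags the highest input was 29 against a bound of 41, and at 13 it was 44 against a bound of 61, so those bounds were not reached. The control tags of listed peaks are therefore cut off from above and do not measure the input of the chromosome at large. The exact tests on control tags, between chromosomes and for the first Mb, compared only these cut-off values. The cut-off depends on the ChIP tags of each peak, so those tests cannot compare input between chromosomes or stretches.

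The fold over input followed from these counts. Every listed peak had already been required to show 4-fold over input and over its local 10 kb. The folds, their limits and the summed quotients thus rest on values that selected the peaks and are no separate measure of enrichment. The median fold over input on chromosome 2 was 12.6 (interquartile range 9.44 to 18.9) and the lowest 5.15. There, 187 peaks (57.4%) had a lower 95% limit above 4, beside 60.3% of the whole list. Summed over all peaks, ChIP tags were 12.8 times the scaled input. That quotient was 12.9 on chromosome 1, 12.6 on chromosome 3, 13.3 on chromosome 4 and 12.98 on chromosome 5. Against the 10 kb around each peak in the ChIP library itself, the median fold was 15.0 on chromosome 2, with 15.4, 15.2, 13.8 and 14.6 on chromosomes 1, 3, 4 and 5. It was 11.7 for the first Mb of chromosome 2 and 15.2 for its other peaks.

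The caller's score and the total tags of a peak were close. The score equalled the total in 191 peaks, exceeded it in 115 and fell short of it in 20, by at most 2 tags. All scores were 7 or more, so the 41 peaks with 5 or 6 total tags (12.6%) passed on a score of at least 7. On chromosome 1 the total exceeded the score by up to 368 tags. The focus ratio, the caller's measure of how tags sit around the peak centre, had a median of 0.8 and ran from 0.556 to 0.933.

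The peak names held a trace of peaks that are not in the list. Names on each chromosome end in a number, and in all 29 chromosomes the score never rose as that number rose. Among peaks of equal score, the number also followed position in all 3056 steps from one listed number to the next. On chromosome 2 the numbers reached 400, of which 326 were listed and 74 were absent. Over all chromosomes 1130 numbers were absent, while the header gives 1162 peaks removed by filters. The header does not say what the numbers stand for, and numbers beyond the last listed one cannot be counted.

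The absent numbers of chromosome 2 were most frequent at both ends of the order. Numbers 1, 2, 3, 5, 10, 11 and 16 were missing from the first 20, so the tallest listed peak, with a score of 18, carried number 4. Of numbers 21 to 100, 5 were absent (6.25%), and of 101 to 200, 10 were (10.0%). Of 201 to 300, 22 were absent, and of 301 to 400, 30 were. Listed numbers from 214 to 400 all had a score of 7, so within that range the order was one of position and not of score. The first listed number was 1 on chromosomes 1 and 5, 4 on chromosome 3 and 7 on chromosome 4.

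More of the numbers were listed on chromosome 2 than on chromosome 1. The share was 81.5% (exact 95% interval 77.3 to 85.2), beside 74.59% of 4447 numbers over the whole list. By the header 74.1% of 4479 putative peaks were kept, a share of all putative peaks and not of numbers up to the last listed. The share of numbers listed was 74.1% on chromosome 1, 77.9% on chromosome 3, 78.5% on chromosome 4 and 80.0% on chromosome 5. By Fisher's exact test, added after the numbers were seen and adjusted over the 4 comparisons, the difference of 7.40 percentage points to chromosome 1 (2.35 to 12.5) passed (adjusted p = 0.0220). In the same exact test the others did not: 3.62 points to chromosome 3 (-2.26 to 9.50, adjusted p = 0.448), 3.002 to chromosome 4 (-3.05 to 9.05, adjusted p = 0.448) and 1.5 to chromosome 5 (-4.67 to 7.67, adjusted p = 0.685). Limited to scores of 8 and above, the difference to chromosome 1 was 12.6 points (exact, adjusted p = 0.000747). The numbers at scores of 8 and above are part of the same numbers, so that result is no further support. These tests counted each peak number as independent. Listed peaks of chromosome 1 came in groups of up to 14 close neighbours, so these p-values may be too small. The count of listed peaks also enters the low density known when chromosome 2 was picked. The highest number of each chromosome is a listed one by construction. These tests therefore cannot decide whether the share listed differs between chromosomes, and the differences are a description. Of all 29 chromosomes, 4 had a higher share than chromosome 2.

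If absent numbers kept the order by position that listed ones have, 62 of the 74 can be placed between listed peaks of the same score, in brackets with a median length of 1.91 Mb. By this reading 29 fell wholly before the middle of the chromosome and 33 after it, where fewer peaks were listed. The largest number in a single bracket was 5, with a score of 7, between 137053976 and 138941583. In the bracket from 79819221 to 83099507, which holds the empty run beginning at 81000001, there were 3. In that from 119401550 to 122622604, around the gap of 3.02 Mb, there were 2. Whether any of them lay inside an empty stretch cannot be read from the list.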

How the data were processed

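One deposited peak list, from 1 FOXO1 ChIP and 1 input library, was analysed. The submitters' processing notes name HOMER 4.7, the peak caller, and Bowtie2 2.1.0, an aligner. From the reads the authors called, per the file headers, 203 bp peaks with findPeaks in factor style at a false discovery rate of 0.001, then required a 4-fold excess and p of 0.0001 over input and over the local 10 kb.

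Total tags were deposited by the authors as counts. A normalized tag number and the scaled control tags are signals deposited by the authors, scaled to 10000000 tags and to the ChIP depth. The folds are ratios, the focus ratio a fraction, the findPeaks score a number on the scale of tags and the p-values unadjusted, all deposited by the authors.

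Whole input tags were recovered as total tags over fold, in steps of 0.0530. All 326 chromosome 2 peaks came within 0.1 of a whole tag, a quotient of 0.5 steps being read as 0. The header gives neither the input depth nor the width over which input tags were counted. ChIP and input tags of a peak may therefore be counts over unlike widths. Chromosome length was the last peak end. Intervals are exact (Clopper-Pearson, Poisson or conditional binomial, 95%), except those of differences in shares. Groups came from the sample titles. Members, lists and tests were chosen with earlier results of these data known, and the analyses by stretches of equal length, of peak numbers and input bounds were added after the values were seen. Named peaks are, by rule, those of the first Mb, the 10 tallest, the 10 with the smallest p, the closest pairs, the ends of the 5 longest gaps, the extremes of input and the fullest windows, while other peaks were named after their values were seen. No gene was assigned, because the gene table at hand is of another assembly. The density ratio interval and Fisher's exact test were tried on simulated independent counts. Those lack the excess spread of the window counts here, so the trial does not show how the intervals perform on these data. Alternatives were stricter lists, linking of peaks within 10 kb, and other windows and thresholds. The software was pandas 2.3.3, scipy 1.17.1 and numpy 2.4.6 under Python 3.11.15, with matplotlib 3.10.9 for drawing.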

Additional observations from a re-analysis of the deposited data

How the results depend on the processing

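Of 75 alternatives over 20 results, 9 of them added after the data were seen, 58 were counted as unchanged. These left the direction and the call as they were, or the value within its counting error. A wider margin was used for the number of peaks. By it the 291 peaks with at least 8-fold over input counted as unchanged, though below the interval of 291.6 to 363.4 around 326. Stricter lists are smaller by construction: 21 peaks of chromosome 2 had a score of at least 12 and 164 were in the 1659 with the smallest p-values. At the score of 12 the density ratio to the other 4 macrochromosomes was 0.669 (0.396 to 1.08), the median was 13 total tags and 0.8 scaled control tags, and 86.6% of windows were empty. In the list by p-value, the median control was 0.4 and 37.6% of windows were empty. Windows of 0.5 Mb were empty in 42.3% and windows of 2 Mb in 4%. The first 2 Mb were 3.05 times as dense as the rest (1.61 to 5.29), since the second Mb is empty; for the first 0.5 Mb the ratio was 3.68 (0.998 to 9.53). Differences that had not passed a test changed sign in 6 cases, and none passed afterwards. With 9 or more tags, chromosome 2 was 0.471 points above chromosome 1 and 2.40 above chromosome 3 (Fisher's exact test, adjusted p = 0.936 for both). For control tags above the list's median, the differences to chromosomes 1 and 5 became -4.47 and -2.85 points in the list by p-value (exact, adjusted p = 0.689 and 0.766). Above the upper quartile, that to chromosome 1 became -1.92 (exact, adjusted p = 0.818). For peak numbers listed down to a score of 8, that to chromosome 5 became -1.39 points (exact, adjusted p = 0.715). Over all alternatives the adjusted exact p ran from 0.414 to 0.936 for the share of tall peaks and from 0.439 to 0.818 for control tags between chromosomes. The cause of these changes was not tested. No paired analysis was possible because 1 ChIP and 1 input library leave nothing to pair. Depth limits the comparison of single peaks, and replicates could not be left out.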
